A study of Mus musculus with 12 samples.

Results

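The genes described are 10 transcription factors that mark the somites and their derivatives: Pax1, Pax9, Nkx3-2, Uncx, Tbx18, Meox1, Meox2, Tcf15, Myf5 and Myog. They were chosen by symbol from a table of 53342 genes, and all 10 passed the filter on low values that kept 17848 genes for testing. The RNA came from the caudal region of E10.5 mouse embryos, an age in embryonic days, and was sequenced in 12 libraries. There were 3 libraries for each of 4 genotypes: beta-catenin cKO, Emg1 cKO, Vangl2 Lp/Lp and wild type. The study asked how transcripts differ in 3 mutants in which closure of the neural tube is impaired. A cKO (conditional knockout) loses its gene only in cells with an active recombinase. Its driver, the cells it acts in and the deleted exons were not named in the labels. Beta-catenin, the product of Ctnnb1, carries WNT signals to the nucleus and links cadherins to actin. EMG1 is a methyltransferase used to build the small ribosomal subunit. Vangl2 encodes a membrane protein of the planar cell polarity pathway. Lp, or loop-tail, changes an amino acid of that protein, and Lp/Lp embryos carry the allele on both chromosomes. Each library was made from pooled embryos, 4 to 7 in a pool, so the spread between replicates is that between pools.

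Somites are blocks of mesoderm that bud in pairs from the presomitic mesoderm on both sides of the neural tube. The ventral part of each somite, under Sonic hedgehog from notochord and floor plate, loses its epithelial form and becomes sclerotome, the source of vertebrae and ribs. The dorsal part stays epithelial as dermomyotome, under WNT and BMP signals from the dorsal neural tube and surface ectoderm, and gives rise to the myotome, where the first skeletal muscle cells form. Pax1, Pax9 and Nkx3-2 mark sclerotome, Uncx its caudal part and Tbx18 its rostral part, Meox1, Meox2 and Tcf15 the somite more widely, and Myf5 and Myog the myotome.

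Libraries held 32863562 to 46464596 reads assigned to genes. Emg1 mRNA fell in Emg1 cKO, at 46 ± 2.38 TPM against 73.9 ± 5.72 TPM in wild type (mean ± SD, n = 3 libraries per genotype, as for every mean below). TPM is a level corrected for gene length and library total. Its log2 fold change was -0.81 ± 0.08 (SE) with an adjusted p of 9.5e-06 by edgeR's quasi-likelihood test with Benjamini-Hochberg adjustment, which gives every adjusted p below. Ctnnb1 mRNA did not pass in beta-catenin cKO, at 823 ± 14 TPM against 811 ± 55.0 TPM in wild type (adjusted p = 0.20), nor Vangl2 mRNA in Vangl2 Lp/Lp, at 77.2 ± 2.02 TPM against 65.0 ± 5.26 TPM in wild type (adjusted p = 0.074). The reads of a gene can stay level where exons are lost in part of the cells, or where the allele changes an amino acid.

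Vangl2 Lp/Lp replicate 1 stood apart from the other 11 libraries in genes of heart muscle, a list chosen after its values were seen. The summed level of Myl7, Myh6, Myh7, Nppa, Myl2, Tnni3, Tnnt2 and Nkx2-5 was 626 TPM in that library and 10.7 to 21.4 TPM in the other 11. Myl7, the atrial myosin light chain, was at 220 TPM there and between 1.45 and 8.68 TPM elsewhere, and the cardiac transcription factor Nkx2-5 was at 6.41 TPM there and between 0 and 0.365 TPM elsewhere. Genes that heart and early skeletal muscle share stood out there too, Actc1 at 476 TPM against 124 to 161 TPM in the other 11. The library also moved some markers of other cells. Without it the median log2 fold change in Vangl2 Lp/Lp against wild type was 0.61 for neuron markers and 0.52 for tail bud markers, against 1.0 and 0.32 with it. For neural tube progenitor markers it was 0.42 with or without the library. Vangl2 Lp/Lp results for the 10 genes and the gene lists are therefore given with and without this library, and its part in the other comparisons enters through the spread that the 4 genotypes share in the fit.

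The log2 fold change against wild type was above 0 for 9 of the 10 genes in beta-catenin cKO, 9 in Emg1 cKO and 7 in Vangl2 Lp/Lp, and the sclerotome genes Pax1 and Pax9 were called higher in all 3 mutants. Of the 10, 3 were called higher in beta-catenin cKO against wild type, Pax1, Pax9 and Nkx3-2, and 0 lower, where 7.48% of all genes tested were called higher and 6.99% lower. In Emg1 cKO against wild type 6 of 10 were called higher, Pax1, Pax9, Nkx3-2, Uncx, Tbx18 and Meox2, and 0 lower, where 11.3% of all genes were called higher and 10.4% lower. In Vangl2 Lp/Lp against wild type 2 were called higher, Pax1 and Pax9, and 1 lower, Myog, where 5.45% of all genes were called higher and 3.34% lower. The median log2 fold change of the 10 genes was 0.24 in beta-catenin cKO, 0.37 in Emg1 cKO and 0.19 in Vangl2 Lp/Lp, and that of all genes tested was 0.0, 0.004 and 0.001. The 3 comparisons share their wild-type libraries, so they are not independent of each other. Counted by libraries, all 3 mutant libraries lay above all 3 wild-type libraries for 8 of the 10 genes in beta-catenin cKO, 8 in Emg1 cKO and 4 in Vangl2 Lp/Lp, where 28.7%, 28.9% and 22.1% of all genes did. They lay below for 0, 0 and 1 gene, where 7.56%, 7.96% and 6.42% of all genes did. These positions, here and in the gene paragraphs, are read in TPM, on which all genes ran somewhat higher in the mutants. On log2(TPM + 1) the median difference of all genes from wild type was 0.103, 0.11 and 0.077, a shift that the fold changes from scaled counts do not carry. In bulk tissue a larger share of somite cells and more RNA per somite cell cannot be told apart.

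**Figure D1:**
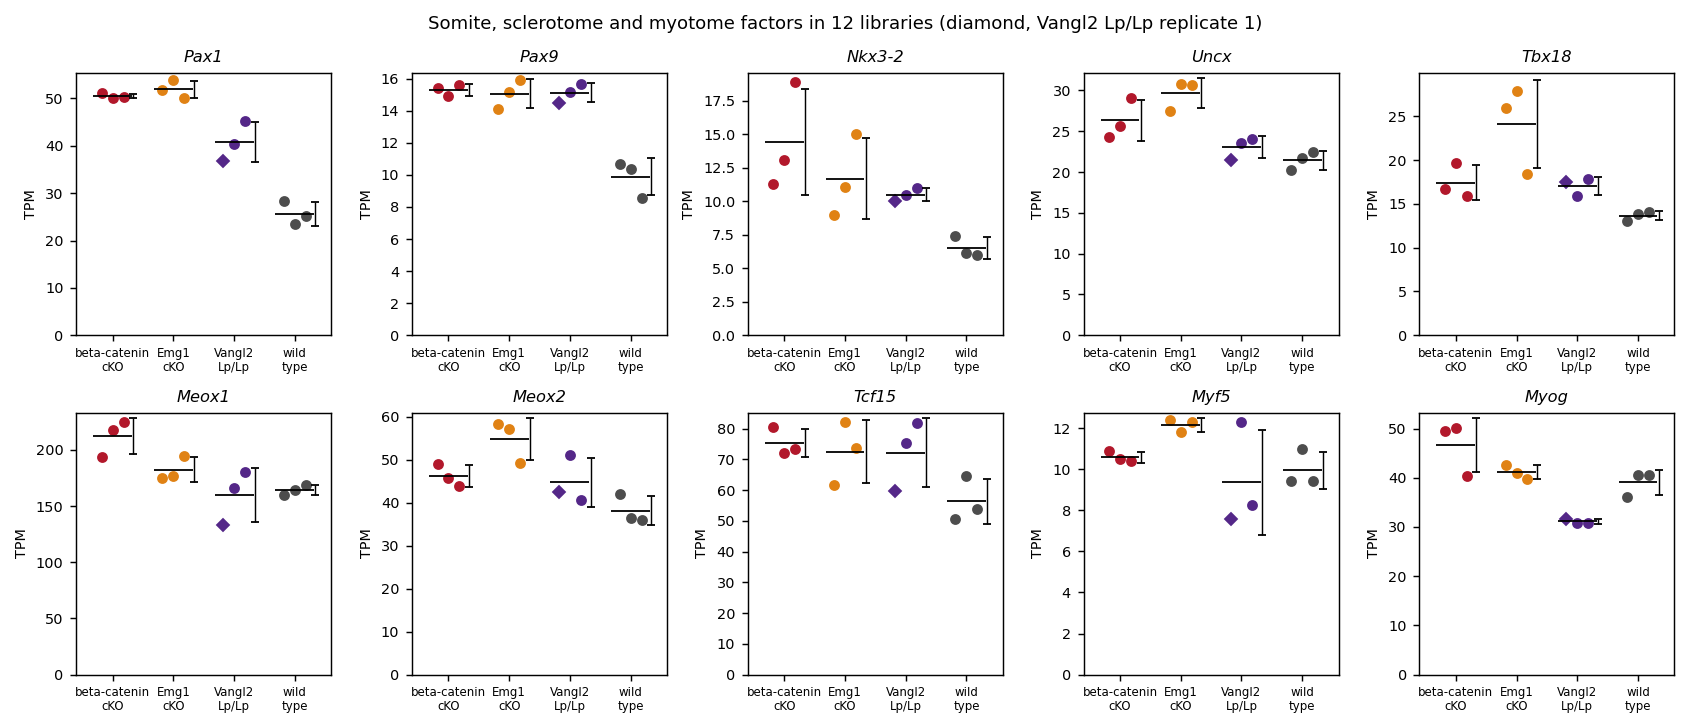
TPM of the 10 genes in each of the 12 libraries (points), with the mean (horizontal line) and SD (bar) of each genotype; the diamond is Vangl2 Lp/Lp replicate 1. Every mutant library lay above every wild-type library for Pax1, Pax9, Nkx3-2 and Tbx18, and Myog was lowest in the 3 Vangl2 Lp/Lp libraries. The share of all genes with every mutant library above wild type was not counted.

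Pax1 encodes the paired-box factor that, with Pax9, is needed for the ventral sclerotome and so for vertebral bodies and discs in the mouse. The gene (ENSMUSG00000037034) lies on mm10 chromosome 2, 147361925 to 147393295, plus strand. It was at 51.1, 50.1 and 50.4 TPM in beta-catenin cKO libraries, at 51.7, 53.8 and 50.2 TPM in Emg1 cKO libraries and at 36.9, 40.3 and 45.2 TPM in Vangl2 Lp/Lp libraries, against 28.3, 23.4 and 25.1 TPM in wild-type libraries. The lowest mutant library, Vangl2 Lp/Lp replicate 1, lay above the highest wild-type library. Pax1 rose 1.82-fold in beta-catenin cKO (log2 fold change 0.87 ± 0.08, adjusted p = 5.5e-06), 1.86-fold in Emg1 cKO (0.90 ± 0.08, adjusted p = 2.4e-06) and 1.5-fold in Vangl2 Lp/Lp (0.59 ± 0.08, adjusted p = 0.00037). Without Vangl2 Lp/Lp replicate 1 the log2 fold change in Vangl2 Lp/Lp was 0.65 (adjusted p = 0.00020). These folds come from the fit to scaled counts and run slightly below the ratios of mean TPM.

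Pax9 is the paralog of Pax1 (ENSMUSG00000001497, chromosome 12, 56691767 to 56712822, plus strand). It was at a lower level in every genotype, at 15.4, 14.9 and 15.6 TPM in beta-catenin cKO, at 14.1, 15.2 and 15.9 TPM in Emg1 cKO and at 14.5, 15.2 and 15.7 TPM in Vangl2 Lp/Lp, against 10.7, 10.4 and 8.58 TPM in wild type. The 9 mutant libraries shared a narrow range above all 3 wild-type libraries. Pax9 rose by a log2 fold change of 0.53 ± 0.08 in beta-catenin cKO (1.44-fold, adjusted p = 0.00065), 0.49 ± 0.08 in Emg1 cKO (1.41-fold, adjusted p = 0.00058) and 0.53 ± 0.08 in Vangl2 Lp/Lp (1.45-fold, adjusted p = 0.0011). Without Vangl2 Lp/Lp replicate 1 the last value was 0.56 (adjusted p = 0.0021). The ratio of Pax1 to Pax9 in TPM was 3.22 to 3.36 in beta-catenin cKO and 3.16 to 3.66 in Emg1 cKO, above all libraries of Vangl2 Lp/Lp at 2.54 to 2.88 and of wild type at 2.26 to 2.92.

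Nkx3-2 (Bapx1) is an NK homeobox gene that acts below Pax1 and Pax9 in the sclerotome and promotes cartilage formation (ENSMUSG00000049691, chromosome 5, 41761483 to 41764501, minus strand). It was the least abundant of the 10 in wild type. It was at 11.3, 13.1 and 18.9 TPM in beta-catenin cKO, at 9.003, 11.13 and 14.97 TPM in Emg1 cKO and at 10.03, 10.48 and 10.97 TPM in Vangl2 Lp/Lp, against 7.42, 6.14 and 5.97 TPM in wild type. Again no mutant library overlapped wild type, but both conditional knockouts spread widely, with coefficients of variation of 27.5% in beta-catenin cKO and 25.9% in Emg1 cKO. Nkx3-2 rose 2.06-fold in beta-catenin cKO (1.04 ± 0.20, adjusted p = 0.0035) and 1.66-fold in Emg1 cKO (0.73 ± 0.20, adjusted p = 0.018). The Emg1 cKO call was lost without Emg1 cKO replicate 3 (0.51, adjusted p = 0.10), without wild type replicate 2 (0.68, adjusted p = 0.061) and without wild type replicate 3 (0.71, adjusted p = 0.055). In Vangl2 Lp/Lp the value was 0.61 ± 0.20 and did not pass (adjusted p = 0.078, and 0.14 without replicate 1). Only 120 to 348 reads a library lay behind it, the fewest of the 3 sclerotome genes.

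The promoter sequences of these 3 genes are shown because these sclerotome genes were above wild type in all 9 mutant libraries, as Tbx18 was. The share of all genes that were so in all 9 was not counted. For the single mutants it was 28.7% in beta-catenin cKO, 28.9% in Emg1 cKO and 22.1% in Vangl2 Lp/Lp. Each runs from 250 bases before to 50 bases after the RefSeq start site (GRCm38.p6, the mm10 assembly), 5′ to 3′ on the gene's strand, with E-boxes (CANNTG, the core bound by bHLH factors such as TCF15, MYF5 and MYOG) in capitals. RefSeq sequences were found for 8 of the 10 genes, all but Meox1 and Tcf15.
Pax1, chr2:147364744-147365043 plus strand: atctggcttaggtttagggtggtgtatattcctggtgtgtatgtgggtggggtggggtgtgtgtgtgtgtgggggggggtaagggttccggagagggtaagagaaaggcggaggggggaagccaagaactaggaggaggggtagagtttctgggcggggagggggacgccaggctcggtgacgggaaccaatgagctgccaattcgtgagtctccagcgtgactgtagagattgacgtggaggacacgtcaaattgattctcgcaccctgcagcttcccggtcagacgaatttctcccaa
Pax9, chr12:56695221-56695520 plus strand: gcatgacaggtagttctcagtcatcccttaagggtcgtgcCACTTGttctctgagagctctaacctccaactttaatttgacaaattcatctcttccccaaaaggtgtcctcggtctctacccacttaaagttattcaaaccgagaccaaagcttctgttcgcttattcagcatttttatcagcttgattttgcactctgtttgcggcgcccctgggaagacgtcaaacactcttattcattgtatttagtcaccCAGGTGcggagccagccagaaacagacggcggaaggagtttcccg
Nkx3-2, chr5:41764171-41764470 minus strand: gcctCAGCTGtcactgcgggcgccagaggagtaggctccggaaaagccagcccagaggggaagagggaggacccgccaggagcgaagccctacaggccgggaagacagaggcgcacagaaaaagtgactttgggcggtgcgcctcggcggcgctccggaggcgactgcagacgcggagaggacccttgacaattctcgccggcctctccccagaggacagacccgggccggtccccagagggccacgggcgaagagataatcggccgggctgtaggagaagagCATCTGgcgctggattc
The Pax1 window held 0 E-boxes, the Pax9 window 2, starting at -210 and 5 relative to the start site, and the Nkx3-2 window 2, at -246 and 33. Of all 32851 RefSeq promoter windows 72.3% held at least 1, so a match is common. A GLI site (GACCACCCA, present in 0.253% of all windows on either strand) and a TCF/LEF site (CTTTGAA, 5.14%) were searched on both strands and were in 0 of the 8 windows. GC content was 57.3%, 47.0% and 66.7% in the Pax1, Pax9 and Nkx3-2 windows, against a median of 52.7% over all windows, and they held 13, 11 and 25 CpG dinucleotides, against a median of 7. No motif match overlapped another.

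Antisense RNAs overlap the 5′ ends of Pax1 and Pax9 at the gene coordinates given above, AI646519 and Gm15524, both named after their values were seen. They do not reach the RefSeq promoter windows shown. AI646519 ends at 147362409 and the Pax1 window starts at 147364744, and Gm15524 ends at 56692964 and the Pax9 window starts at 56695221. AI646519 was at 1.40 to 8.58 TPM over the 12 libraries and was not called in any mutant against wild type (its adjusted p was 0.21 in beta-catenin cKO, 0.60 in Emg1 cKO and 0.086 in Vangl2 Lp/Lp). Gm15524 averaged 7.22 ± 1.99 TPM in beta-catenin cKO, 5.96 ± 0.757 TPM in Emg1 cKO and 5.30 ± 1.74 TPM in Vangl2 Lp/Lp, against 2.97 ± 0.616 TPM in wild type, and passed the test in beta-catenin cKO (1.15 ± 0.33, adjusted p = 0.029). The 3′ end of Pax9 also overlaps Slc25a21 on the other strand, at 1.65 ± 0.176 TPM in beta-catenin cKO against 1.56 ± 0.211 TPM in wild type. The library kit marks strand, but how the counting used it is not known, so reads of Pax1 and Pax9 and of these partners may not have been told apart.

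Uncx is a homeobox gene of the caudal sclerotome needed for pedicles and proximal ribs in the mouse (ENSMUSG00000029546, chromosome 5, 139543494 to 139548179, plus strand). It was at 24.3, 25.6 and 29.1 TPM in beta-catenin cKO, at 27.5, 30.8 and 30.7 TPM in Emg1 cKO and at 21.5, 23.6 and 24.1 TPM in Vangl2 Lp/Lp, against 20.2, 21.7 and 22.5 TPM in wild type. Both conditional knockouts lay above wild type in every library, and Vangl2 Lp/Lp overlapped it. Uncx rose in Emg1 cKO (0.34 ± 0.09, 1.27-fold, adjusted p = 0.017). That call was lost without wild type replicate 1 (0.27, adjusted p = 0.061), Emg1 cKO replicate 2 (0.31, adjusted p = 0.070) or Emg1 cKO replicate 3 (0.32, adjusted p = 0.056). In beta-catenin cKO the log2 fold change was 0.18 ± 0.09 (adjusted p = 0.22) and in Vangl2 Lp/Lp it was 0.01 ± 0.09 (adjusted p = 0.96, and 0.06 with an adjusted p of 0.80 without replicate 1).

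Tbx18 is a T-box gene of the rostral somite compartment that keeps rostral and caudal sclerotome apart in the mouse (ENSMUSG00000032419, chromosome 9, 87702800 to 87731260, minus strand). Its level was 16.7, 19.7 and 15.9 TPM in beta-catenin cKO, at 26.0, 27.9 and 18.4 TPM in Emg1 cKO and at 17.5, 15.9 and 17.8 TPM in Vangl2 Lp/Lp, against 13.1, 13.8 and 14.1 TPM in wild type. Every mutant library was above wild type, and Emg1 cKO replicates 1 and 2 were above all others. Tbx18 rose 1.62-fold in Emg1 cKO (0.69 ± 0.13, adjusted p = 0.0018). It did not pass in beta-catenin cKO (0.23 ± 0.13, adjusted p = 0.26) or in Vangl2 Lp/Lp (0.23 ± 0.13, adjusted p = 0.30, and 0.21 with an adjusted p of 0.47 without replicate 1). The ratio of Uncx to Tbx18, caudal to rostral, was 1.55 to 1.6 in the 3 wild-type libraries. It spread over 1.30 to 1.84 in beta-catenin cKO, 1.06 to 1.67 in Emg1 cKO and 1.23 to 1.48 in Vangl2 Lp/Lp, so the Vangl2 Lp/Lp libraries lay below wild type and those of the conditional knockouts lay on both sides of it.

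Meox1 is a homeobox gene of the whole early somite that acts with Meox2 in sclerotome and muscle (ENSMUSG00000001493, chromosome 11, 101877510 to 101894374, minus strand). It was the most abundant of the 10 in every genotype. It was at 194, 218 and 225 TPM in beta-catenin cKO, at 175, 177 and 195 TPM in Emg1 cKO and at 133, 166 and 180 TPM in Vangl2 Lp/Lp, against 160, 164 and 169 TPM in wild type. The 3 libraries of each conditional knockout lay above wild type. Yet the value in beta-catenin cKO did not pass (0.25 ± 0.09, 1.19-fold, adjusted p = 0.086). It passed without Vangl2 Lp/Lp replicate 1 (adjusted p = 0.026) and under 6 other settings. Meox1 did not pass in Emg1 cKO (0.03 ± 0.09, adjusted p = 0.88) or in Vangl2 Lp/Lp (-0.13 ± 0.09, adjusted p = 0.42). Without replicate 1, its lowest library, the Vangl2 Lp/Lp value for Meox1 was -0.01 (adjusted p = 0.94).

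Meox2, its paralog, is in the mouse required for normal limb muscle (ENSMUSG00000036144, chromosome 12, 37108540 to 37179534, plus strand). It was at 48.9, 45.6 and 43.9 TPM in beta-catenin cKO, at 58.2, 57.0 and 49.2 TPM in Emg1 cKO and at 42.4, 51.1 and 40.5 TPM in Vangl2 Lp/Lp, against 42.0, 36.3 and 36.0 TPM in wild type. The libraries of both conditional knockouts were clear of wild type, and Meox2 rose in Emg1 cKO (0.41 ± 0.10, 1.33-fold, adjusted p = 0.0071). It did not pass in beta-catenin cKO (0.16 ± 0.10, adjusted p = 0.27) or in Vangl2 Lp/Lp (0.15 ± 0.10, adjusted p = 0.36, and 0.18 with an adjusted p of 0.37 without replicate 1).

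Tcf15 (paraxis) is the bHLH factor needed for epithelial somites in the mouse (ENSMUSG00000068079, chromosome 2, 152143561 to 152149097, plus strand). It came next to Meox1 in level in every genotype. It was at 80.6, 72.1 and 73.4 TPM in beta-catenin cKO, at 61.7, 82.1 and 73.8 TPM in Emg1 cKO and at 59.7, 75.2 and 81.7 TPM in Vangl2 Lp/Lp, against 50.7, 64.5 and 53.7 TPM in wild type. Only beta-catenin cKO was clear of wild type, and Tcf15 passed in none of the 3 mutants, with log2 fold changes of 0.31 ± 0.13 (adjusted p = 0.13), 0.25 ± 0.13 (adjusted p = 0.20) and 0.27 ± 0.13 (adjusted p = 0.21) in beta-catenin cKO, in Emg1 cKO and in Vangl2 Lp/Lp. The last value was 0.39 without Vangl2 Lp/Lp replicate 1 (adjusted p = 0.10).

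Myf5 encodes the first myogenic bHLH factor switched on in the mouse myotome (ENSMUSG00000000435, chromosome 10, 107482908 to 107486134, minus strand). It was at 10.87, 10.51 and 10.40 TPM in beta-catenin cKO, at 12.4, 11.8 and 12.3 TPM in Emg1 cKO and at 7.59, 12.3 and 8.24 TPM in Vangl2 Lp/Lp, against 9.41, 11.01 and 9.43 TPM in wild type. Emg1 cKO lay above wild type in every library and the other mutants overlapped it. Myf5 passed in none, with log2 fold changes of -0.02 ± 0.16 in beta-catenin cKO (adjusted p = 0.95), 0.17 ± 0.16 in Emg1 cKO (adjusted p = 0.48) and -0.17 ± 0.16 in Vangl2 Lp/Lp (adjusted p = 0.55). The last value was -0.04 without Vangl2 Lp/Lp replicate 1 (adjusted p = 0.92).

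Myog encodes myogenin, which drives the differentiation of committed muscle cells (ENSMUSG00000026459, chromosome 1, 134289989 to 134292548, plus strand). Its level was 49.5, 50.2 and 40.3 TPM in beta-catenin cKO, at 42.6, 41.0 and 39.8 TPM in Emg1 cKO and at 31.7, 30.9 and 30.9 TPM in Vangl2 Lp/Lp, against 36.1, 40.6 and 40.5 TPM in wild type. The 3 Vangl2 Lp/Lp libraries were the lowest of all 12 and within 1 TPM of each other, including replicate 1. Myog fell in Vangl2 Lp/Lp (-0.42 ± 0.10, to 0.749 of wild type, adjusted p = 0.021), the only fall among the 10 genes in a mutant against wild type. The size held without Vangl2 Lp/Lp replicate 1 (-0.43) but the call did not (adjusted p = 0.051). It was also lost without Vangl2 Lp/Lp replicate 3 (-0.40, adjusted p = 0.058), wild type replicate 2 (-0.40, adjusted p = 0.061) and wild type replicate 3 (-0.35, adjusted p = 0.079). Myog did not pass in beta-catenin cKO (0.14 ± 0.10, adjusted p = 0.39) or Emg1 cKO (-0.05 ± 0.10, adjusted p = 0.76).

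The Myog promoter is shown because E-boxes and a MEF3 site (TCAGGTT) are among the sites known to control the gene. E-boxes and the MEF3 site are in capitals.
Myog, chr1:134289754-134290053 plus strand: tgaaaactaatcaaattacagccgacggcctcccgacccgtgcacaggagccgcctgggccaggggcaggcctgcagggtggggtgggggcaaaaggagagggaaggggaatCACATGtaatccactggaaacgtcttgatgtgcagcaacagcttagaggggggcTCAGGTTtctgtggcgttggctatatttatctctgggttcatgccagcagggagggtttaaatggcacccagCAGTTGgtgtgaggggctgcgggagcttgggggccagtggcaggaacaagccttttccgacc
The E-boxes CACATG and CAGTTG start at -138 and -12 and the MEF3 site at -84. MEF3 letters stood in 4.07% of all promoter windows, and in 1 of the 8 windows of these genes, that of Myog. The GC content of this window was 58.3%.

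**Figure D2:**
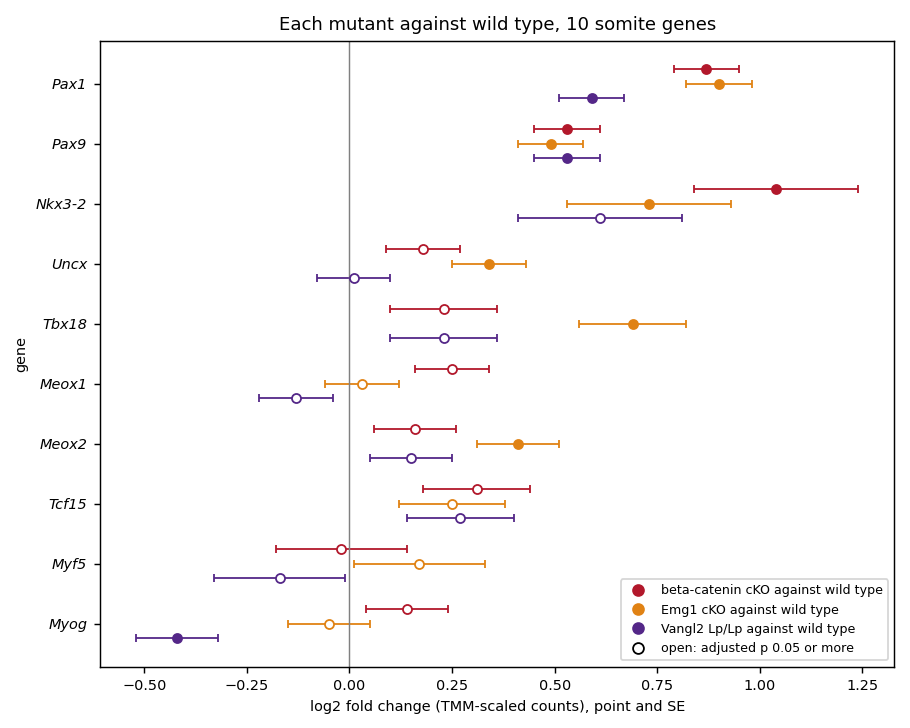
Log2 fold change of each of the 10 genes in each mutant against wild type, with its SE (bars); filled points have an adjusted p under 0.05. Pax1 and Pax9 are filled in all 3 mutants, Nkx3-2 in both conditional knockouts, Uncx, Tbx18 and Meox2 in Emg1 cKO, and Myog, to the left of 0, in Vangl2 Lp/Lp.

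Beyond Myf5 and Myog, the other genes of the myogenic family were at low counts. Myod1, the determination factor that follows Myf5, was at 3.64, 3.75 and 2.30 TPM in beta-catenin cKO, at 1.74, 4.32 and 4.66 TPM in Emg1 cKO and at 3.88, 2.49 and 1.53 TPM in Vangl2 Lp/Lp, against 1.32, 1.51 and 0.926 TPM in wild type, from 25 to 98 reads a library. All 9 mutant libraries lay above wild type. Wild type replicate 3 lay below the 1 TPM of the filter, so wild type alone would not have kept Myod1 for testing. It was tested only with the help of its mutant libraries, and its calls are no independent evidence of a rise. Myod1 rose 2.41-fold in beta-catenin cKO (1.27 ± 0.40, adjusted p = 0.046) and 2.66-fold in Emg1 cKO (1.41 ± 0.40, adjusted p = 0.020), and did not pass in Vangl2 Lp/Lp (1.01 ± 0.40, adjusted p = 0.13, and 0.63 with an adjusted p of 0.45 without replicate 1). The first of these calls was lost when any of 7 single libraries was left out, among them each wild-type library, and the second without wild type replicate 3, Emg1 cKO replicate 2 or Emg1 cKO replicate 3.

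Myf6 (MRF4), expressed early in the mouse myotome and again in maturing fibres, was low in Vangl2 Lp/Lp. It was at 4.92, 4.80 and 5.63 TPM in beta-catenin cKO, at 5.77, 5.17 and 6.16 TPM in Emg1 cKO and at 4.36, 2.28 and 2.31 TPM in Vangl2 Lp/Lp, against 5.68, 6.54 and 4.74 TPM in wild type, from 30 to 94 reads a library. Vangl2 Lp/Lp lay below wild type in every library, with replicates 2 and 3 lowest. Myf6 fell in Vangl2 Lp/Lp (-0.99 ± 0.25, adjusted p = 0.022), and by more without replicate 1 (-1.36 ± 0.24, adjusted p = 0.0041). The call was lost without wild type replicate 2, Vangl2 Lp/Lp replicate 2 or Vangl2 Lp/Lp replicate 3 (adjusted p of at most 0.080). Myf6 lies next to Myf5 on chromosome 10, at 107492853 to 107494737 on the same strand. It did not pass in beta-catenin cKO (-0.24 ± 0.24, adjusted p = 0.55) or Emg1 cKO (-0.10 ± 0.23, adjusted p = 0.81).

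The list of 17 tested genes of myotome and early muscle differentiation had 4 higher and 0 lower genes in beta-catenin cKO (median log2 fold change 0.37), and 6 higher and 0 lower in Emg1 cKO (median 0.44). Of all genes 7.48% were higher and 6.99% lower in beta-catenin cKO, and 11.3% and 10.4% in Emg1 cKO. Neb, which encodes the thin filament protein nebulin, had the smallest adjusted p of the list in all 3 mutants, at 1.25 ± 0.211 TPM in beta-catenin cKO, 1.42 ± 0.202 TPM in Emg1 cKO and 0.995 ± 0.305 TPM in Vangl2 Lp/Lp, against 0.40 ± 0.0896 TPM in wild type (1.55 ± 0.21, 1.72 ± 0.21 and 1.25 ± 0.21, adjusted p of 0.00030, 7.4e-05 and 0.0027). In wild type Neb lay below the 1 TPM of the filter. It was therefore tested only through its mutant libraries, and its calls are no independent evidence of a rise. The same limit holds for Myod1, which is also among the higher genes of both conditional knockouts. Tnnt1, slow troponin T, averaged 12.3 ± 1.33, 16.7 ± 1.38 and 13.3 ± 4.55 TPM in the same mutants, against 6.90 ± 1.52 TPM in wild type, and rose by 1.13 ± 0.21 in Emg1 cKO (adjusted p = 0.0017). Its calls in beta-catenin cKO (0.70 ± 0.22, adjusted p = 0.041) and Vangl2 Lp/Lp (0.84 ± 0.21, adjusted p = 0.025) were lost when single libraries were left out, any of 6 in beta-catenin cKO, and in Vangl2 Lp/Lp wild type replicate 1 or Vangl2 Lp/Lp replicate 1 (0.52 without the last, adjusted p = 0.12). Myh3, embryonic myosin heavy chain, rose in Emg1 cKO (0.82 ± 0.18, adjusted p = 0.0047) and in beta-catenin cKO (0.64 ± 0.18, adjusted p = 0.027, lost without beta-catenin cKO replicate 1 or 2 or wild type replicate 1). Without Vangl2 Lp/Lp replicate 1, which enters these comparisons only through the shared spread, 7 of the 17 genes were higher in beta-catenin cKO and 10 in Emg1 cKO, where 8.52% and 12% of all genes were. Without beta-catenin cKO replicate 1 or 2, or wild type replicate 1, the count in beta-catenin cKO was 1, where 4.64%, 5.22% and 7.07% of all genes were higher.

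In Vangl2 Lp/Lp the same list gave other counts with and without the library high in heart muscle genes. With it, 2 genes were higher, Neb and Tnnt1, and 1 lower, Myf6, with a median of 0.50, where 5.45% of all genes were higher and 3.34% lower. Without it, 1 was higher, Neb, kept by the filter only through mutant libraries (0.98 ± 0.19, adjusted p = 0.0092). There were 4 lower, with a list median of -0.03, where 2.84% of all genes were called higher and 1.19% lower. The 4 were Acta1, skeletal alpha-actin (-1.05 ± 0.13, adjusted p = 0.00032), Actc1, the actin of heart and embryonic skeletal muscle (-0.38 ± 0.07, adjusted p = 0.0080), Des, desmin (-0.45 ± 0.10, adjusted p = 0.018), and Myf6. Acta1 was at 40.0, 16.5 and 17.7 TPM in the 3 Vangl2 Lp/Lp libraries, against 30.9, 34.5 and 34.1 TPM in wild type, and Des at 42.9, 26.4 and 29.9 TPM, against 34.1, 35.7 and 38.6 TPM. The genes of this group other than Myf6, and the choice to leave out that library, were singled out after their values were seen, and 2 libraries then stand for Vangl2 Lp/Lp.

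**Figure D3:**
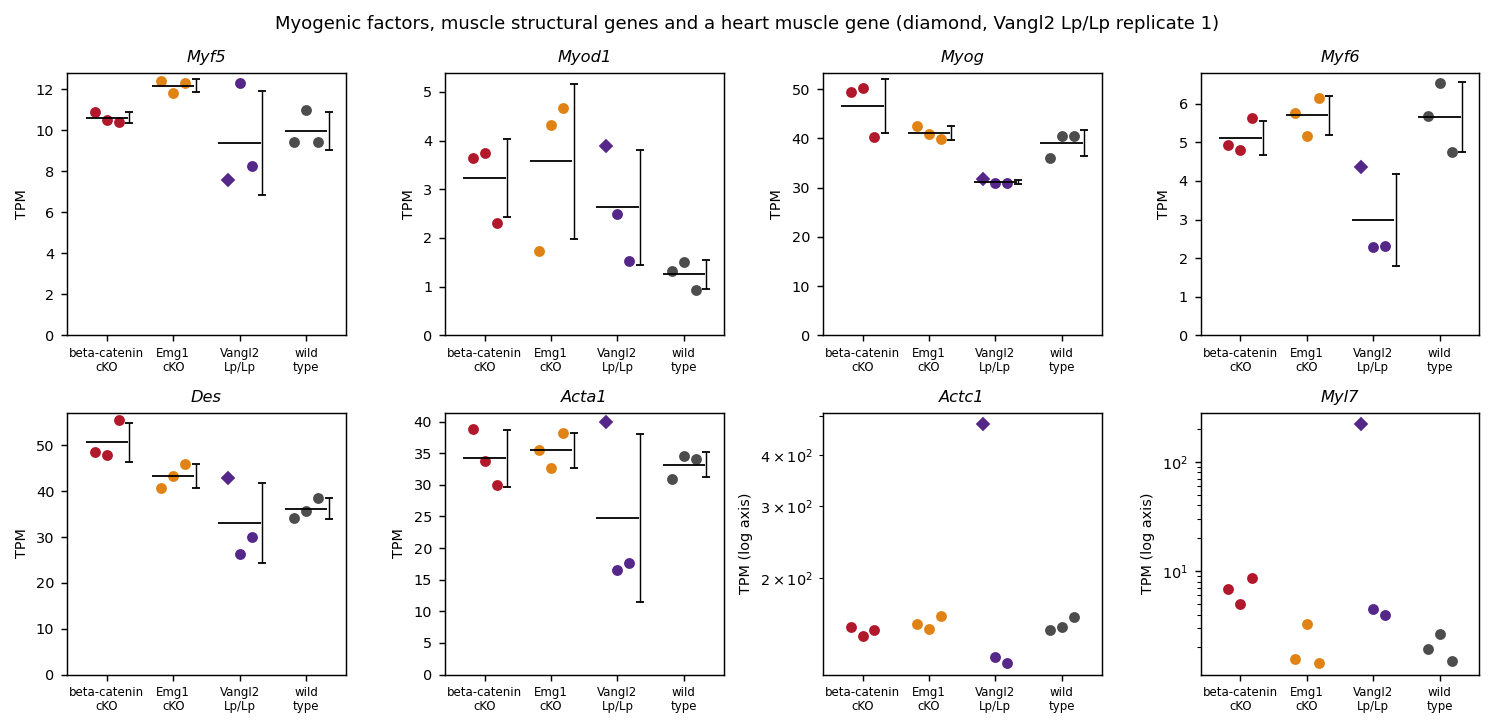
TPM of 4 myogenic factors, 3 muscle structural genes and the heart muscle gene Myl7 by library (points), with mean and SD where the axis is linear; Actc1 and Myl7 are on log axes, and the diamond is Vangl2 Lp/Lp replicate 1. The diamond is far above all points for Myl7 and Actc1, level with the other 2 Vangl2 Lp/Lp libraries for Myog, and the other Vangl2 Lp/Lp libraries are the lowest for Myf6, Des, Acta1 and Actc1.

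Of 15 tested genes of sclerotome and cartilage, 7 were higher and 2 lower in beta-catenin cKO (median 0.23), 8 higher and 0 lower in Emg1 cKO (median 0.28), and 3 higher and 0 lower in Vangl2 Lp/Lp (median 0.12). Of all genes 7.48% were higher and 6.99% lower in beta-catenin cKO, 11.3% higher and 10.4% lower in Emg1 cKO, and 5.45% higher and 3.34% lower in Vangl2 Lp/Lp. Col2a1, the collagen of cartilage and of the notochord sheath, was at 163 ± 4.80 TPM in beta-catenin cKO, 193 ± 5.52 TPM in Emg1 cKO and 163 ± 13.8 TPM in Vangl2 Lp/Lp, against 104 ± 4.60 TPM in wild type. It rose in all 3, by 0.54 ± 0.06, 0.77 ± 0.06 and 0.56 ± 0.06 (adjusted p of 4.8e-05, 1.5e-06 and 6.5e-05). Sox9, the master regulator of cartilage and also a gene of neural tube and crest, averaged 68.6 ± 2.25, 88.7 ± 10.7 and 64.8 ± 0.0515 TPM in these mutants, against 49.5 ± 3.39 TPM in wild type. It rose by 0.36 ± 0.08, 0.72 ± 0.08 and 0.30 ± 0.08 (adjusted p of 0.0090, 3.6e-05 and 0.031), and its call in Vangl2 Lp/Lp was lost when any Vangl2 Lp/Lp library or wild type replicate 1 or 2 was left out. The forkhead genes Foxc1 and Foxc2, needed for somite formation in the mouse, rose in beta-catenin cKO (0.54 ± 0.08 and 0.74 ± 0.11, adjusted p of 0.00040 and 0.00051) and in Emg1 cKO (0.56 ± 0.08 and 0.55 ± 0.11, adjusted p of 0.00015 and 0.0022). In Vangl2 Lp/Lp they were at 0.22 ± 0.08 and 0.24 ± 0.11 and did not pass (adjusted p of 0.087 and 0.18). Without replicate 1 they were at 0.28 and 0.35 there (adjusted p of 0.062 and 0.066). Jag1, a Notch ligand, rose in all 3 mutants, by 0.38 ± 0.06 in beta-catenin cKO, 0.28 ± 0.06 in Emg1 cKO and 0.26 ± 0.06 in Vangl2 Lp/Lp (adjusted p of 0.00080, 0.0039 and 0.014, the last lost without Vangl2 Lp/Lp replicate 3).

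Tbx15, in the same subfamily as Tbx18 and expressed in limb and dermal mesenchyme, was at 13.3, 18.8 and 12.8 TPM in beta-catenin cKO, 44.3, 43.3 and 30.5 TPM in Emg1 cKO and 25, 31.7 and 37.8 TPM in Vangl2 Lp/Lp, against 25.3, 27.9 and 31.9 TPM in wild type. It fell in beta-catenin cKO (-1.04 ± 0.18, to 0.485 of wild type, adjusted p = 0.0017). The third gene of that subfamily, Tbx22, stayed at 0.681 to 1.07 TPM over the 12 libraries, and did not pass in any mutant.

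Among 12 genes of dermomyotome and muscle precursors, 1 was higher and 2 lower in beta-catenin cKO (median -0.19), 5 higher and 0 lower in Emg1 cKO (median 0.17), and 1 higher and 0 lower in Vangl2 Lp/Lp (median -0.10). Against the 7.48% higher and 6.99% lower of all genes in beta-catenin cKO and the 5.45% and 3.34% in Vangl2 Lp/Lp, these counts were near the background, while the 5 in Emg1 cKO stand beside 11.3%. Pax3, which marks dermomyotome and dorsal neural tube, was at 19.3, 20 and 20.5 TPM in beta-catenin cKO, against 24.2, 24.4 and 21.5 TPM in wild type, and fell there (-0.34 ± 0.06, adjusted p = 0.0024), as did Eya2, a transcriptional cofactor (-0.45 ± 0.11, adjusted p = 0.015). The Eya2 call was lost without beta-catenin cKO replicate 1 or 3 or wild type replicate 3. Pax3 was at 26.6 ± 1.01 TPM in Emg1 cKO and 28.0 ± 1.70 TPM in Vangl2 Lp/Lp and did not pass in either (adjusted p of 0.46 and 0.091). Eya2 (0.37 ± 0.11, adjusted p = 0.027) and Lbx1, a marker of migrating limb muscle precursors and dorsal interneurons (0.46 ± 0.14, adjusted p = 0.029), passed in Emg1 cKO, but were lost without 3 and 5 single libraries. Pax7, a gene of dermomyotome and dorsal neural tube, passed in Emg1 cKO (0.56 ± 0.18, adjusted p = 0.033) and Vangl2 Lp/Lp (0.61 ± 0.18, adjusted p = 0.044) and was lost without 4 and 7 single libraries, in Vangl2 Lp/Lp its replicate 1 among them. Sim1, of the lateral dermomyotome, passed in beta-catenin cKO (0.46 ± 0.14, adjusted p = 0.035), a call lost when any beta-catenin cKO library or wild type replicate 2 or 3 was left out.

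Of 17 tested genes of segmentation and presomitic mesoderm, 0 were higher and 1 lower in beta-catenin cKO (median 0.10), 5 higher and 1 lower in Emg1 cKO (median 0.13), and 3 higher and 0 lower in Vangl2 Lp/Lp (median 0.25). The shares of all genes were 7.48% higher and 6.99% lower in beta-catenin cKO, so its count was no larger than the background, 11.3% higher and 10.4% lower in Emg1 cKO, and 5.45% higher and 3.34% lower in Vangl2 Lp/Lp. Msgn1, a bHLH gene of presomitic mesoderm, averaged 10.4 ± 2.18 TPM in beta-catenin cKO, against 18.7 ± 2.03 TPM in wild type (-0.96 ± 0.29, adjusted p = 0.037). The call was lost when any library of either genotype was left out. In Emg1 cKO the adhesion gene Cdh11 (0.29 ± 0.06, adjusted p = 0.0040) and the ephrin receptor gene Epha4, which marks the rostral border of the forming somite (0.29 ± 0.07, adjusted p = 0.0062), rose. The 1 lower gene there was Ripply1, at 1.31 ± 0.154 TPM against 2.56 ± 0.0739 TPM in wild type (-1.10 ± 0.37, adjusted p = 0.043). Ripply2 (-1.17 ± 0.54), Msgn1 (-0.45 ± 0.28) and Tbx6 (-0.37 ± 0.23) did not pass there (adjusted p of 0.14, 0.27 and 0.27). Of the 17 genes, 10 were above 0 in Emg1 cKO. Ripply1, Ripply2 and Tbx6 were named after their values were seen. Notch1 passed in Emg1 cKO (0.47 ± 0.12, adjusted p = 0.013) and Vangl2 Lp/Lp (0.47 ± 0.12, adjusted p = 0.026), in each case not without wild type replicate 3 or the mutant's replicate 3. Epha4 (0.26 ± 0.07, adjusted p = 0.027) and the Notch ligand gene Dll1 (0.39 ± 0.10, adjusted p = 0.030) passed in Vangl2 Lp/Lp, and were lost without 4 and 5 single libraries, replicate 1 among them.

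Among 14 genes of signals that pattern the somite, 3 were higher and 5 lower in beta-catenin cKO (median 0.05), 0 higher and 4 lower in Emg1 cKO (median -0.08), and 0 higher and 2 lower in Vangl2 Lp/Lp (median 0.08). Of all genes 7.48%, 11.3% and 5.45% were higher and 6.99%, 10.4% and 3.34% lower in these mutants. Wnt6, a surface ectoderm ligand that helps to keep the dermomyotome epithelial, was at 11.3 ± 0.842 TPM in beta-catenin cKO, 11.6 ± 0.918 TPM in Emg1 cKO and 20.2 ± 2.35 TPM in Vangl2 Lp/Lp, against 27.9 ± 1.97 TPM in wild type. It fell in all 3 (-1.42 ± 0.11, -1.39 ± 0.11 and -0.55 ± 0.11, adjusted p of 2.3e-06, 1.5e-06 and 0.0055). Bmp4 fell in all 3 as well (-0.37 ± 0.08, -0.55 ± 0.08 and -0.39 ± 0.08, adjusted p of 0.0060, 0.00023 and 0.0072). The BMP antagonist gene Grem1 fell in beta-catenin cKO (-0.97 ± 0.14, adjusted p = 0.00046) and Emg1 cKO (-0.61 ± 0.14, adjusted p = 0.0058), and was at -0.24 ± 0.14 in Vangl2 Lp/Lp (adjusted p = 0.29, and -0.07 with an adjusted p of 0.76 without replicate 1). Of the hedgehog genes, Shh (0.34 ± 0.09, adjusted p = 0.021) and its target Gli1 (0.31 ± 0.07, adjusted p = 0.0074) passed in beta-catenin cKO, though Shh did not without beta-catenin cKO replicate 3 or wild type replicate 2. Neither passed in Emg1 cKO (0.19 ± 0.09 and 0.09 ± 0.07, adjusted p of 0.15 and 0.37) or in Vangl2 Lp/Lp (-0.02 ± 0.09 and 0.12 ± 0.07, adjusted p of 0.90 and 0.27). Ptch1 and Foxa2, hedgehog and floor plate genes of the same list, were not called in any of the 3 mutants. Shh, Gli1, Ptch1 and Foxa2 were named after their values were seen. Without Vangl2 Lp/Lp replicate 1 the counts in Vangl2 Lp/Lp were 2 higher and 0 lower of the sclerotome list (Col2a1 at 0.52 ± 0.06, adjusted p = 0.00029, and Jag1), 0 of the dermomyotome list, 1 higher and 0 lower of the segmentation list, and 1 higher and 2 lower of the signals (Wnt6 at -0.48 ± 0.11 and Bmp4 at -0.29 ± 0.07, adjusted p of 0.027 and 0.030), where 2.84% of all genes were higher and 1.19% lower.

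**Figure D4:**
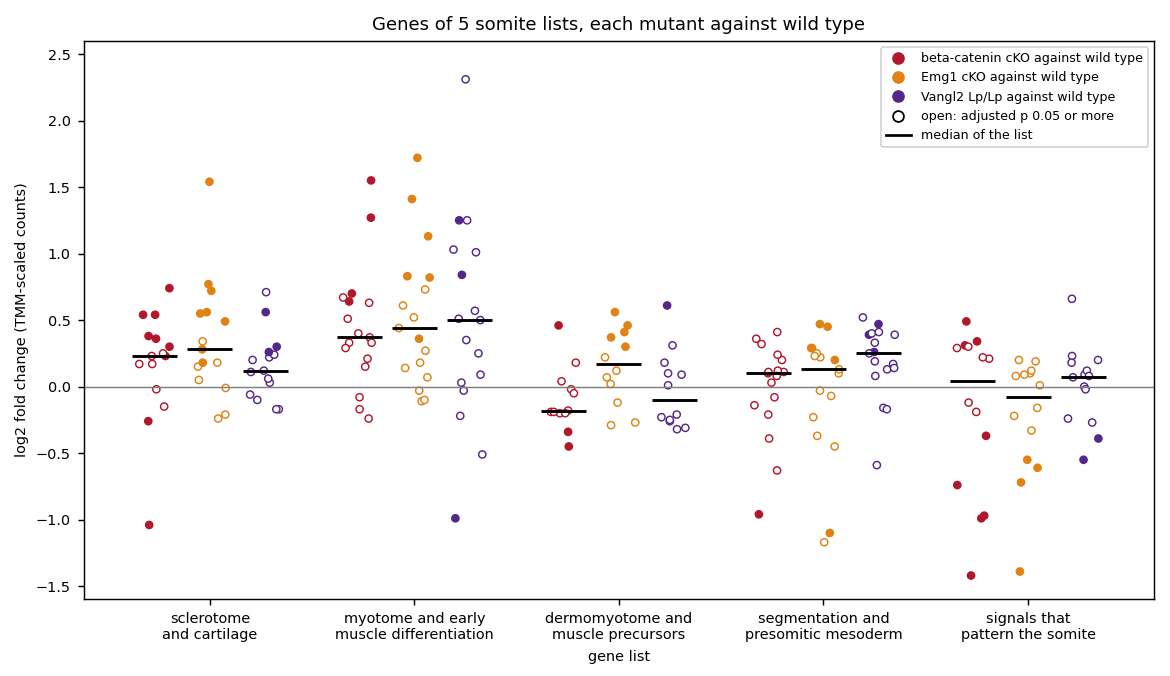
Log2 fold change of every tested gene of 5 somite gene lists in each mutant against wild type (points, filled where the adjusted p is under 0.05) with the list's median (black bar). Sclerotome and myotome lists have medians above 0 in all 3 mutants (-0.03 for the myotome list in Vangl2 Lp/Lp without replicate 1), the dermomyotome list has its median below 0 in beta-catenin cKO and Vangl2 Lp/Lp, and the highest point, Myl4 in Vangl2 Lp/Lp, was at 45.6 TPM in replicate 1 and 2.57 to 5.77 TPM in the other 11 libraries.

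Markers of other cells of the caudal region differed between the genotypes as well, and their part in the results above was not tested. The shares of all genes called higher were 7.48%, 11.3% and 5.45% in beta-catenin cKO, in Emg1 cKO and in Vangl2 Lp/Lp, and those called lower 6.99%, 10.4% and 3.34%. Of 7 neuron markers 5, 7 and 6 were higher in beta-catenin cKO, in Emg1 cKO and in Vangl2 Lp/Lp, with a summed level of 467 to 483, 672 to 694 and 412 to 744 TPM, against 233 to 302 TPM in wild type. Of 6 intermediate mesoderm markers 5, 4 and 3 were higher, at 70.0 to 77.0, 56.9 to 64.9 and 44.7 to 52.1 TPM in sum, against 34.7 to 38.8 TPM in wild type. In Vangl2 Lp/Lp the 3 were Lhx1 (1.42 ± 0.17), Pax2 (0.63 ± 0.12) and Pax8 (0.92 ± 0.20). Ret (0.10 ± 0.10), Wt1 (-0.09 ± 0.11) and Gata3 (-0.15 ± 0.15) did not pass there, so the rise was not one of the whole list. Of 8 surface ectoderm markers 4, 8 and 4 were lower, at 338 to 360, 227 to 312 and 268 to 343 TPM, against 373 to 458 TPM in wild type. Of 6 blood markers 5, 6 and 2 were lower, at 19500 to 20500, 15400 to 20900 and 18500 to 29000 TPM, against 27300 to 32600 TPM in wild type. Of 6 tail bud progenitor markers 3 were lower in beta-catenin cKO and 4 in Emg1 cKO, at 73.6 to 77.9 and 64.0 to 91.4 TPM, against 90.6 to 110 TPM in wild type, and 0 of 6 were called in Vangl2 Lp/Lp, at 99.7 to 153 TPM. Neural crest markers were lower for 4 of 6 genes in beta-catenin cKO (median log2 fold change -0.85), 1 in Emg1 cKO and 0 in Vangl2 Lp/Lp, at 79.8 to 93.7, 110 to 124 and 127 to 130 TPM in sum, against 107 to 129 TPM in wild type. Markers of lateral plate and limb mesenchyme were lower for 4 of 8 in beta-catenin cKO (median -0.49), where Tbx15 fell, 1 in Emg1 cKO, with 1 higher, and 0 in Vangl2 Lp/Lp, at 308 to 324, 371 to 394 and 316 to 397 TPM, against 351 to 400 TPM in wild type. Markers of neural tube progenitors were higher for 3, 4 and 5 of 8, at 268 to 314, 261 to 315 and 258 to 298 TPM, against 216 to 230 TPM in wild type. Sox9, Pax3 and Pax7, described with the somite lists, are also genes of neural tube or crest. Wnt6 was counted both with the signals and with the surface ectoderm markers. Isl1, the limb mesenchyme marker called higher in Emg1 cKO, was also counted with the neuron markers. Without Vangl2 Lp/Lp replicate 1, 2.84% of all genes were higher and 1.19% lower in Vangl2 Lp/Lp. The counts there were then 5 neuron, 4 neural tube, 3 intermediate mesoderm and 2 tail bud markers higher, and 1 surface ectoderm, 1 limb mesenchyme and 2 blood markers lower. None of these markers was at 0 in any library. The sum of the 10 somite genes was 503 to 523 TPM in beta-catenin cKO, 479 to 507 TPM in Emg1 cKO and 375 to 456 TPM in Vangl2 Lp/Lp, against 378 to 392 TPM in wild type.

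The mutants were also set against each other. In beta-catenin cKO against Emg1 cKO 0 of 10 genes were called by edgeR, where 3.26% of all genes were. In the edgeR test 3 of the 10 had an unadjusted p under 0.05 (Meox1, Meox2 and Tbx18), and the share of all genes at that threshold was not counted. DESeq2 called 1 of the 10, and 990 of all genes against 582 by edgeR. The largest difference was in Tbx18, at 17.4 ± 2.02 TPM in beta-catenin cKO against 24.1 ± 5.05 TPM in Emg1 cKO (-0.46 ± 0.13, adjusted p = 0.074), and it rested on Emg1 cKO replicates 1 and 2, since without replicate 3 the value was -0.62 and passed (adjusted p = 0.0044). In beta-catenin cKO against Vangl2 Lp/Lp 3 genes were called higher, where 1.62% of all genes were called higher and 2.25% lower. Myog was at 46.7 ± 5.51 TPM in beta-catenin cKO and 31.2 ± 0.510 TPM in Vangl2 Lp/Lp (0.55 ± 0.10, adjusted p = 0.0057), and that call held without any single library. Meox1 (0.38 ± 0.09, adjusted p = 0.034) and Pax1 (0.28 ± 0.07, adjusted p = 0.048) did not keep theirs without Vangl2 Lp/Lp replicate 1 (0.27 and 0.21, adjusted p of 0.095 and 0.18), nor without several other libraries.

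In Emg1 cKO against Vangl2 Lp/Lp 1 gene was called, Pax1, at 51.9 ± 1.81 TPM in Emg1 cKO and 40.8 ± 4.21 TPM in Vangl2 Lp/Lp (0.31 ± 0.07, adjusted p = 0.035), where 1.32% of all genes were called higher and 1.51% lower. Without Vangl2 Lp/Lp replicate 1 the value was 0.25 and did not pass (adjusted p = 0.099), and 7 other single libraries also decided the call. Every Emg1 cKO library lay above every Vangl2 Lp/Lp library for 4 of the 10 genes, where 14.5% of all genes did, and beside Pax1 these were Myog (0.37 ± 0.10), Tbx18 (0.46 ± 0.13) and Uncx (0.33 ± 0.09), which did not pass (adjusted p of 0.073, 0.076 and 0.075). A single test for any difference among the 4 genotypes called 8 of the 10 genes, where 21.1% of all genes were called, and left out Tcf15 (adjusted p = 0.26) and Myf5 (adjusted p = 0.40).

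By level the order was Meox1, then Tcf15, in every genotype, with Pax9, Nkx3-2 and Myf5 the 3 lowest. In wild type Myog (39.1 ± 2.6 TPM) and Meox2 (38.1 ± 3.37 TPM) came next and overlapped, followed by Pax1 (25.6 ± 2.50 TPM), Uncx (21.5 ± 1.19 TPM) and Tbx18 (13.7 ± 0.540 TPM), each clear of its neighbours, and then Myf5 (9.95 ± 0.920 TPM) and Pax9 (9.89 ± 1.15 TPM), which overlapped. Pax1 held rank 3 in beta-catenin cKO, where it overlapped Myog, and rank 4 in Emg1 cKO and Vangl2 Lp/Lp, where it overlapped Meox2, against rank 5 in wild type. Variation between replicates was smallest for Pax1 in beta-catenin cKO, with a coefficient of variation of 1.05%, and in wild type it ran from 2.99% for Meox1 to 12.9% for Tcf15.

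Among 12431 genes with a mean of at least 5 TPM, those whose log2(TPM + 1) ran most like Pax1 over the 12 libraries were Pgghg (Pearson's r = 0.971), Lgr4 (0.963) and Tanc1 (0.963). For Pax9 they were Zbtb12 (0.981), Ntn1 (0.971) and Lsm14b (0.963), and for Nkx3-2 Fbxo21 (0.957), Fgfr3 (0.950) and Map3k12 (0.946). Meox1 ran most like Ppp2cb (0.932), Arg1 (0.918) and Fst (0.907), and Tbx18 most like Pkia (0.947), Anapc7 (0.934) and 2610203C20Rik (0.933). For Uncx they were Bbc3 (0.954), Jund (0.941) and Hsd11b2 (0.937), for Meox2 Lrp12 (0.943), Myo1e (0.938) and Spef1 (0.934), and for Tcf15 Smap2 (0.937), Slc9a5 (0.906) and Gm10689 (0.902). Likeness was lower for the myotome genes, with Gm5914 (0.873), Sh3gl3 (0.853) and Paip2b (0.845) for Myf5 and Ppp1r2-ps4 (0.881), Prn (0.861) and Phf2os1 (0.859) for Myog. No list held another of the 10 genes. The libraries fall into 4 genotypes, which all points of a genotype share: Pax1 and Pax9 had an r of 0.90 over the 12 libraries and 0.35 after the genotype means were taken out.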

How the data were processed

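RNA was extracted with a miRNeasy kit and libraries were made with a TruSeq Stranded mRNA kit, per the labels' protocols. The submitters' processing notes name Trimmomatic 0.39, STAR 2.7.10b and the build mm10; the counter, its strand setting and the annotation release are not given there. The deposited table held 2 values per gene and library, an expected count of reads, not normalised by the authors, and a log2 of TPM with values of 1 TPM or less set to 0. Counts divided by TPM gave a single factor per gene and library (largest residual in log2 1.2e-06), which gave TPM under 1 back. The rounded counts went into edgeR 4.0.16 (R 4.3.3) with TMM scaling, 1 fit over 12 libraries, two-sided quasi-likelihood F test, Benjamini-Hochberg adjustment over the 17848 genes at 1 TPM or more in at least 3 libraries, called under 0.05. SE is the log2 fold change divided by the square root of F. The code was tested on simulated counts.

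Alternatives were RLE size factors, library totals alone, no filter on low values, DESeq2 1.42.0, limma 3.58.1 on log2(TPM + 1), a replicate block, the 6 libraries of a comparison alone, and each library left out. The labels give each genotype replicates 1 to 3 and do not say that the numbers pair libraries. Same-numbered libraries deviated from their genotype means with correlations of -0.12 to 0.10 over 18 pairs. Such correlations over all genes cannot exclude a factor that same-numbered libraries share in some genes. The main fit did not pair them. Genes named beyond the 10 were up to 3 called genes per list and mutant with the smallest adjusted p, plus set paralogs; some of these are not reported here. The 10 genes and the lists were chosen with earlier results of these data known. Chrna1, Acan, Matn1 and Mesp1 were below the filter. Figures used matplotlib 3.10.9 in Python 3.11.15.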

Additional observations from a re-analysis of the deposited data

How the results depend on the processing

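Of the values for the 10 genes, those called in a mutant against wild type kept their direction under every alternative tried, and the calls lost with a single library left out are given beside them above. In beta-catenin cKO against wild type limma on log2(TPM + 1) called 6 genes in place of 3, adding Meox1, Uncx and Tcf15. Of all genes it called 1981 higher there, against 1335 in the main fit. On that scale the median of all genes moved by 0.103, 0.11 and 0.077 in beta-catenin cKO, in Emg1 cKO and in Vangl2 Lp/Lp. For beta-catenin cKO against Emg1 cKO the count was 2 with no filter on low values and 1 with DESeq2, against 0. Of all genes 1308, 990 and 582 were called in that order. In Emg1 cKO against Vangl2 Lp/Lp the count of the 10 genes was 4 with no filter, 4 with DESeq2, 2 with limma and 0 with the 6 libraries alone, against 1. The calls over all genes were 1244, 940, 351 and 294, against 505. With 1 library left out the counts ran from 3 to 4, 4 to 6 and 2 to 3 for beta-catenin cKO, for Emg1 cKO and for Vangl2 Lp/Lp against wild type, 0 to 1, 1 to 3 and 0 to 2 for beta-catenin cKO against Emg1 cKO, beta-catenin cKO against Vangl2 Lp/Lp and Emg1 cKO against Vangl2 Lp/Lp, and 4 to 8 for any difference. The calls over all genes then ran from 1436 to 2863, 2610 to 4092, 719 to 1688, 231 to 813, 371 to 808 and 186 to 713 for these 6 comparisons. With the replicate block the counts of the 10 genes were 4, 6, 3, 0, 2 and 1 in that order and 8 for any difference, and Meox1 passed in beta-catenin cKO (0.25, adjusted p = 0.018). The calls over all genes for the 6 comparisons were 2370, 3595, 1350, 516, 636 and 471, against 2582, 3880, 1570, 582, 690 and 505 in the main fit. The cause of these changes was not tested.

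Values near 0 that did not pass changed sign. With library totals alone Myf5 was 0.02 in beta-catenin cKO and Myog 0.0 in Emg1 cKO, and with limma they were 0.09 and 0.07. With limma Pax9 was 0.02 in beta-catenin cKO against Vangl2 Lp/Lp and Tcf15 0.01 in Emg1 cKO against Vangl2 Lp/Lp. Uncx was -0.0 in Vangl2 Lp/Lp with no filter, and Tbx18 -0.01 in beta-catenin cKO against Vangl2 Lp/Lp with the replicate block. With 1 library left out, against wild type, Myf5 ran from -0.09 to 0.05 in beta-catenin cKO, Meox1 from -0.02 to 0.09 and Myog from -0.13 to 0.02 in Emg1 cKO, and Uncx from -0.06 to 0.09 in Vangl2 Lp/Lp. In beta-catenin cKO against Emg1 cKO Pax9 ran from -0.02 to 0.07, Tcf15 from -0.04 to 0.17 and Pax1 from -0.05 to 0.01. In beta-catenin cKO against Vangl2 Lp/Lp Tbx18 ran from -0.10 to 0.07, Meox2 from -0.05 to 0.13, Tcf15 from -0.09 to 0.12 and Pax9 from -0.04 to 0.01. In Emg1 cKO against Vangl2 Lp/Lp Tcf15 ran from -0.15 to 0.08, Pax9 from -0.08 to 0.01 and Nkx3-2 from -0.09 to 0.28.

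Over all genes, 68.8%, 68.3% and 76.4% of the calls in beta-catenin cKO, in Emg1 cKO and in Vangl2 Lp/Lp against wild type were higher with library totals alone and 82.5%, 82.0% and 85.1% with limma, against 51.7%, 52.1% and 62.0% with TMM. Vangl2 Lp/Lp against wild type had 1570 calls, 2624 with no filter, 737 with the 6 libraries alone and 719 without Vangl2 Lp/Lp replicate 1, and beta-catenin cKO against wild type 2582, with 1436 without beta-catenin cKO replicate 3. Between mutants 505 to 690 calls stood against 1244 to 1339 with no filter; beta-catenin cKO against Emg1 cKO had 582, with 990 by DESeq2, and Emg1 cKO against Vangl2 Lp/Lp 505, with 940 by DESeq2, 351 by limma and 294 with the 6 libraries alone. Of the named genes outside the 10, limma lost Pax3, Eya2, Sim1, Myod1 and Msgn1 in beta-catenin cKO, Bmp4 in beta-catenin cKO and Vangl2 Lp/Lp, and Neb and Pax7 in Vangl2 Lp/Lp. The 6 libraries alone lost Myf6, Tnnt1, Jag1, Epha4 and Pax7 in Vangl2 Lp/Lp and Sim1 in beta-catenin cKO, the replicate block lost Tnnt1, Myod1 and Sim1 in beta-catenin cKO and Pax7 in Vangl2 Lp/Lp, and no filter lost Sim1 in beta-catenin cKO and Lbx1 in Emg1 cKO.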
